A study of Mus musculus with 2 samples.

Results

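The genes described here encode the eukaryotic translation initiation factors, together with the kinases and binding proteins that carry the same gene prefix. They are the protein-coding genes whose symbol starts with Eif followed by a digit from 1 to 6. The annotation holds 55 of them among 22028 protein-coding genes, and 51 had at least 1 read in each library. The tissue was gastrocnemius, the large calf muscle, of B6CASTF1/J females aged 14 days, an F1 hybrid of a C57BL/6 and a CAST parent, whose total RNA was sequenced as long reads. The 2 libraries, biological replicates 1 and 2, form 1 group for which no treatment is named, so no contrast between conditions exists. According to the labels the muscle of replicate 1 came from 3 females, whereas for replicate 2 no number of animals is given, and 1 donor identifier covers both. Whether animals were pooled is not given.

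Initiation factors bring the methionyl initiator tRNA, the small ribosomal subunit and a capped mRNA together and set the ribosome on a start codon. eIF2 carries the initiator tRNA, eIF3 scaffolds the small subunit, the eIF4 proteins bind the cap and unwind the mRNA, and eIF1, eIF1A and eIF5 govern the choice of the start codon. Muscle is known to control this step through phosphorylation of eIF2 and through the mTORC1 pathway, which frees eIF4E from its binding proteins.

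Replicate 1 had 1248854 reads on annotated genes and replicate 2 had 1106450. Levels are given as CPM, a gene's reads scaled to a library total of 1000000 such reads. CPM was not divided by length, because a long read was counted once whatever its length. One read equalled 0.801 CPM in the first library and 0.904 CPM in the second. The limit of 3 reads that a count of 0 allows is 2.40 and 2.71 CPM. The libraries differed in transcript length, with a read-weighted mean model length of 2347 bases in replicate 1 and 1545 bases in replicate 2. All 6 skeletal muscle markers were detected in both, and their summed share of gene reads was 27.6% and 18.6%. The 4 fibroblast markers held 0.792% and 0.340% of gene reads, and the 4 Schwann cell markers 0.0573% and 0.245%. The part of these marker shifts in the differences given below was not tested. In whole muscle, fewer cells of a type and less RNA per cell cannot be told apart.

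Of all gene reads, the initiation factor genes held 0.519% (replicate 1) and 0.481% (replicate 2). Their mean was 0.50% ± 0.0265 (SD, n = 2). These shares stand for 6479 and 5326 reads. The 14 eIF3 genes took the largest part, 23.9% ± 0.453 (SD, n = 2) of the reads of all members. The genes for eIF1 and eIF1A followed with 15.2% ± 1.96 and the eIF5A pair with 12.9% ± 1.53 (SD, n = 2 each). The eIF4G genes held 9.49% ± 3.09, the eIF2 subunits 7.73% ± 0.360 and the eIF4A genes 7.23% ± 0.379 (SD, n = 2 each). On the CPM scale 10 members stood above 100 in both libraries and 27 stood above 50. At the other end, 4 members stood above 0 but under 10 in both, and 4 had no read. Some members overlap a gene on the opposite strand, and whether counting used the strand is not stated: Eif1ad overlaps Banf1 (427 reads), Eif2ak1 Aimp2 (213 reads), Eif4enif1 Drg1 (112 reads), Eif2b4 Snx17 (80 reads) and Eif2a Serp1 (60 reads).

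**Figure D1:**
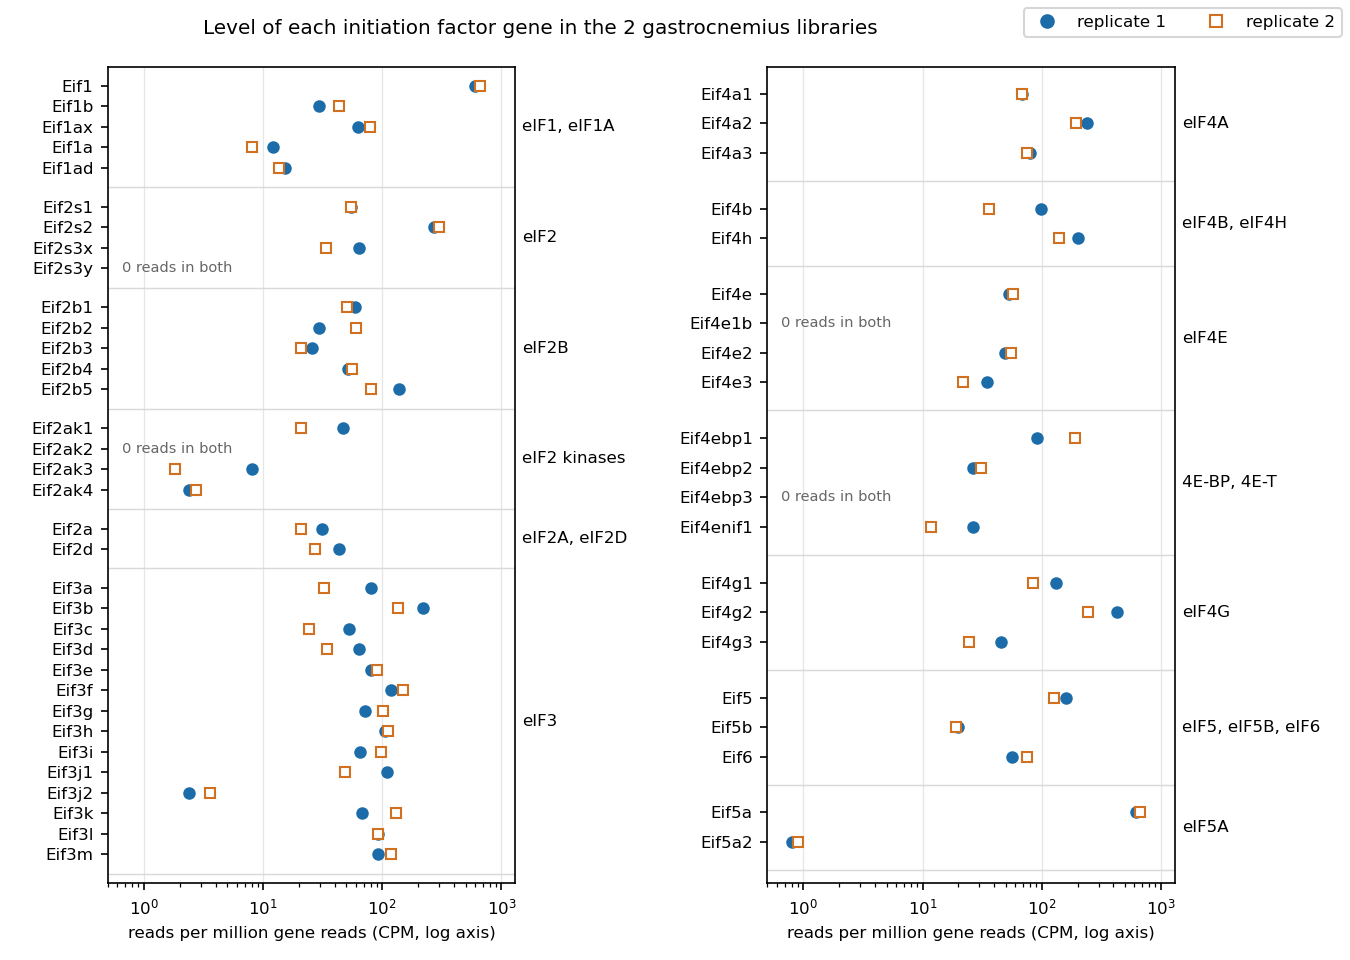
Level of each of the 55 initiation factor genes in replicate 1 (filled circles) and replicate 2 (open squares), in CPM on a log axis, grouped by role. Eif5a and Eif1 stand highest in both libraries, at 597 CPM or more, and the 4 genes without a read are marked as such.

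Eif1 encodes eIF1, the factor that keeps the scanning ribosome from starting at a poor site. Its level was 597 CPM in replicate 1 and 654 CPM in replicate 2, from 746 and 724 reads. Its paralog Eif1b stood at 29.6 and 43.4 CPM, so Eif1 held 94.5% ± 1.06 (SD, n = 2) of the reads of the pair. Eif1 was thus far above Eif1b in each library. Eif1ax, the X-linked gene for eIF1A, which opens the subunit for scanning, had 78 and 87 reads. The autosomal Eif1a had 15 and 9 reads, which left Eif1ax with 87.2% ± 4.78 (SD, n = 2) of that pair. Eif1ad, named for an eIF1A-like domain, was at 15.2 and 13.6 CPM.

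The bases around a start codon are the feature on which eIF1 and eIF5 act, and the efficient context is known to have a purine 3 bases before the codon and a G right after it. The windows below run from 9 bases before the annotated start codon to 3 bases after it, with the codon in capitals. They are given for Eif5a, Eif1 and Eif4g2, the members with the highest mean CPM, and for Eif1b and Eif5. They come from the GENCODE M21 transcript with the most reads (mm10) of each gene. The sequence of Eif1 lies at chr11:100320121-100320135 (plus strand), that of Eif1b at chr9:120492802-120492816 (plus strand) and that of Eif5 at chr12:111539607-111539621 (plus strand). The window of Eif5a is at chr11:69919310-69919324 and that of Eif4g2 at chr7:111081542-111081556, both on the minus strand.
Eif1-201: tcgtatcgtATGtcc
Eif1b-201: tagtgtcgcATGtcc
Eif5-202: taagccaaaATGtct
Eif5a-210: cctcttaaaATGgca
Eif4g2-213: gccgccaaaGTGgag
Eif1 and Eif1b had neither favoured base, and the only other such member was Eif3b. Eif5 had the purine without the G, Eif5a had both, and Eif4g2 had both around an annotated GTG start codon. Among 47 members with an annotated start, 20 (42.6%) had both favoured bases and 3 (6.38%) had neither. Over the 7934 protein-coding genes tested the shares were 47.7% and 5.66%. Of those genes 12 had an annotated start other than ATG, Eif4g2 being the 1 member. An upstream ATG lay before the start codon in 15 of the 47 members (31.9%), against 47% of all genes examined. Eif5 and Eif4e had 5 each. For Eif4e this is the count in Eif4e-204, annotated with 872 bases before the start, 549 coding bases and 1421 bases in all. Its annotated coding sequence thus runs to its 3′ end. Median length of the annotated 5′ untranslated region was 126 bases in the members and 165 bases over all.

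eIF2 is a trimer of alpha, beta and gamma subunits. Eif2s2, the gene for the beta subunit (chr2:154871410-154892935, minus strand), was the highest of them at 269 and 296 CPM. Eif2s1, for the alpha subunit that the stress kinases phosphorylate, was at 54.4 and 54.2 CPM. Eif2s3x, for the GTP-binding gamma subunit, was at 64.1 and 33.4 CPM. Eif2s2 thus had 4.94 times the CPM of the lowest subunit in replicate 1 and 8.86 times in replicate 2, on transcripts whose read-weighted mean length was 2542 bases for Eif2s2 against 3233 and 3140 bases for Eif2s1 and Eif2s3x. The Y-linked Eif2s3y had no read in either library, both of which are labelled female.

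eIF2B exchanges the guanine nucleotide on eIF2 and has 5 different subunits. Eif2b5, for the catalytic epsilon subunit, was highest at 139 and 80.4 CPM. Eif2b3, for the gamma subunit, was lowest at 25.6 and 20.8 CPM. Eif2b1 was at 59.3 and 50.6 CPM and Eif2b4 at 52.0 and 56.0 CPM, so the order of these 2 genes turned between the libraries. Eif2b2, for the beta subunit, had 37 and 66 reads, or 29.6 and 59.7 CPM. Its log2 ratio of replicate 1 over replicate 2 was -1.20 ± 0.295 (SE from counting), adjusted p = 0.00276 by Fisher's exact test with Benjamini-Hochberg adjustment over 8973 genes.

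Of the kinases that phosphorylate eIF2 alpha, Eif2ak1, encoding the heme-regulated kinase, was the one with most reads, 58 and 23. It held 81.9% ± 0.320 (SD, n = 2) of the kinase reads. Eif2ak3, which encodes the endoplasmic reticulum kinase PERK, had 10 and 2 reads, and Eif2ak4, for the amino acid sensor GCN2, had 3 in each. Eif2ak2, for the double-stranded RNA kinase PKR, had none, which allows up to 2.40 and 2.71 CPM. The place of Eif2ak1 above the other kinases exceeded the counting error in both libraries: its Wilson 95% interval ran from 71.2 to 89.0% in replicate 1 and from 64.4 to 92.1% in replicate 2. Eif2a and Eif2d, for factors that can deliver initiator tRNA without eIF2, stood at 31.2 and 20.8 CPM and at 43.2 and 27.1 CPM.

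eIF3 is the largest initiation factor, and 13 of its 14 genes had at least 10 reads in the sum of both libraries. Their CPM ranged from 52.8 (Eif3c) to 220 (Eif3b) in replicate 1 and from 24.4 (Eif3c) to 149 (Eif3f) in replicate 2. The median over the 13 genes was 80.9 and 96.7 CPM. Eif3b, for the subunit that holds the g and i subunits, had 275 and 149 reads. Eif3f, whose product is known as a regulator of muscle mass, had 149 and 165. Eif3h was at 106 and 111 CPM, Eif3m at 92.9 and 118 CPM, Eif3l at 92.9 and 91.3 CPM and Eif3e at 80.9 and 90.4 CPM, 4 subunits of the core built from PCI and MPN domains. Eif3h and Eif3m changed places between the libraries, so these genes are not ranked by these data. Eif3g stood at 71.3 and 102 CPM, Eif3i at 64.9 and 96.7 CPM and Eif3d, which encodes a cap-binding subunit, at 63.3 and 34.3 CPM.

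The remaining eIF3 genes showed the widest gaps between the libraries. Eif3a, for the largest scaffold subunit (chr19), had 100 reads in replicate 1 and 36 in replicate 2, a log2 ratio of 1.09 ± 0.279 (SE from counting). Its adjusted p by Fisher's exact test was 1.05e-05. Eif3k, for the smallest subunit (chr7:28971372-28981864, minus strand), went the other way with 85 and 143 reads, a log2 ratio of -1.12 ± 0.197 and an adjusted p of 1.87e-05 by the same test. Eif3c had 66 and 27 reads and Eif3j1, for the loosely bound j subunit, 137 and 54. Their adjusted p by Fisher's exact test was 0.00287 and 2.01e-06, but the log2 ratios of 0.90 and 0.97 fell short of the 1 that a call needs. Eif3j2, a single-exon paralog of Eif3j1, had 3 and 4 reads, and Eif3j1 held 95.5% ± 3.36 (SD, n = 2) of the pair.

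eIF4A is the helicase that unwinds the mRNA leader. Eif4a2 was at 241 and 193 CPM and Eif4a1 at 68.1 and 67.8 CPM, so Eif4a2 held 78.0% of the pair in replicate 1 and 74.0% in replicate 2 (mean 76.0% ± 2.84, SD, n = 2). The Wilson 95% intervals, 73.6 to 81.8% and 68.6 to 78.7%, lay above an equal split in both libraries. Mean model lengths were 1849 bases for Eif4a2 and 1650 for Eif4a1, and the most read annotated transcripts have 2208 and 1774 bases. From models that cover a whole intron chain alone, the share of Eif4a2 was 76.4% ± 3.64 (SD, n = 2). These shares leave out the pseudogene Eif4a-ps4, which had 71 and 44 reads. Whether those reads came from an Eif4a gene was not tested. Eif4a3, for a helicase of the exon junction complex, had 100 and 83 reads. Eif4h and Eif4b encode RNA-binding partners that stimulate the helicase. Eif4h had 250 and 154 reads and Eif4b 122 and 40 reads, a share of 73.3% ± 8.61 (SD, n = 2) for Eif4h. Eif4b (chr15) was higher in replicate 1 with a log2 ratio of 1.23 ± 0.262 (SE from counting), adjusted p = 1.01e-07 by Fisher's exact test.

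eIF4E binds the cap. Eif4e had 66 and 63 reads, Eif4e2, encoding the homolog that takes part in repression, 62 and 61, and Eif4e3 43 and 24. Eif4e and Eif4e2 held 40.6% ± 2.81 and 38.7% ± 3.51 (SD, n = 2) of the family, a difference within the spread. Eif4e1b, known from oocytes, had no read in either library, up to 2.40 and 2.71 CPM. The binding proteins compete with eIF4G for eIF4E until mTORC1 phosphorylates them. Eif4ebp1 (chr8), the form known as the major one of muscle, had 113 reads in replicate 1 and 212 in replicate 2. Its log2 ratio was -1.27 ± 0.168 (SE from counting), adjusted p = 7.64e-10 by Fisher's exact test. Eif4ebp2 had 33 and 34 reads and Eif4ebp3 none. Of the reads of Eif4ebp2, 30 and 29 lay in models without splicing, so Eif4ebp1 held 81.8% ± 6.21 of the family over all models and 97.5% ± 0.185 over models with a whole chain (SD, n = 2 each). Eif4enif1, for the transporter that takes eIF4E into the nucleus, had 33 and 13 reads.

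eIF4G is the scaffold that joins eIF4E, eIF4A and eIF3. Most reads of its family came from Eif4g2 (chr7:111067750-111083030, minus strand), which encodes DAP5, a relative without the eIF4E-binding part. Eif4g2 had 534 reads in replicate 1 and 268 in replicate 2, or 428 and 242 CPM. Eif4g1 had 165 and 94 reads and Eif4g3 had 57 and 27. The shares were 69.8% ± 1.23 for Eif4g2, 23.0% ± 1.65 for Eif4g1 and 7.24% ± 0.423 for Eif4g3 (SD, n = 2 each), the same order in both libraries and with intervals that did not overlap. Over models with a whole chain the shares were 88.8% ± 4.91, 9.13% ± 3.39 and 2.03% ± 1.51 (SD, n = 2 each). Such models held only 23.2% of the reads of Eif4g1 and 16.0% of those of Eif4g3. All 3 genes had more CPM in replicate 1, with log2 ratios of 0.62, 0.44 and 0.69, under the ratio of 1.

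**Figure D2:**
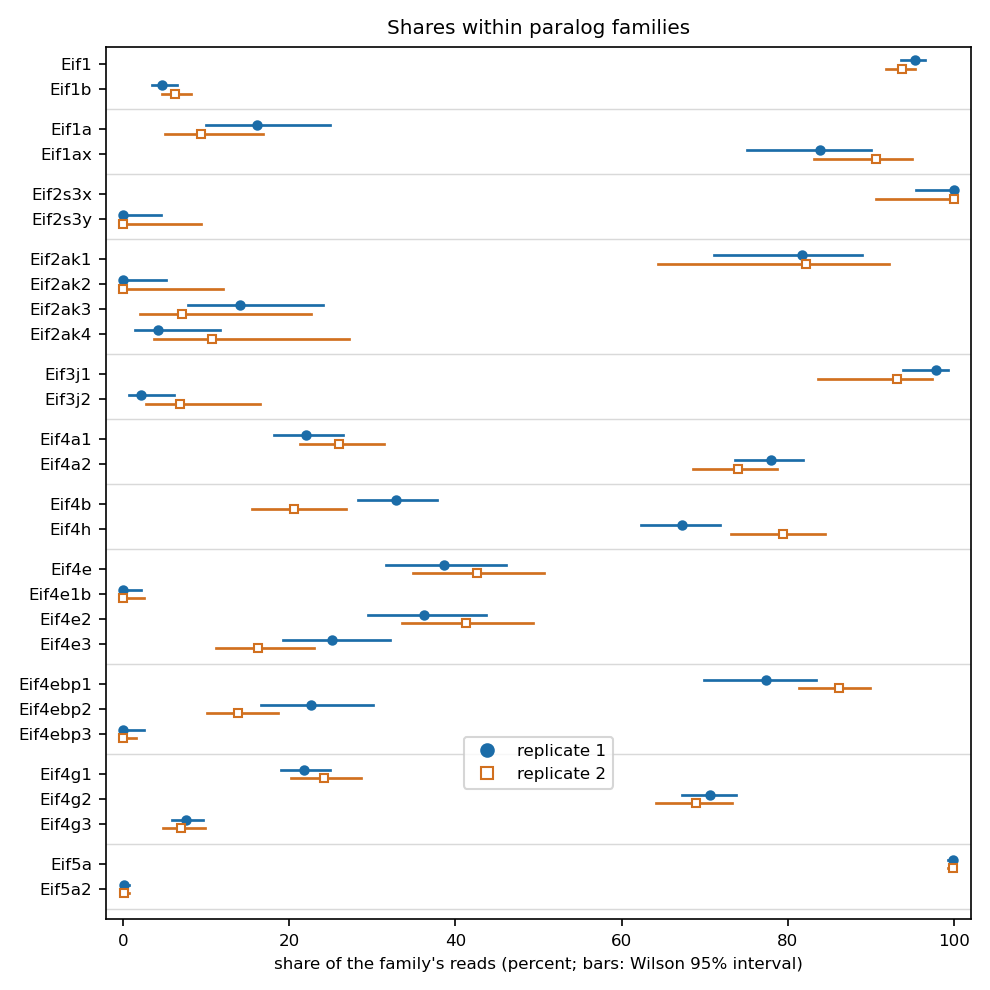
Share of each paralog in the reads of its family, in percent, for replicate 1 (filled circles) and replicate 2 (open squares), with Wilson 95% intervals as bars. One gene holds most reads in each family except that of eIF4E, where the intervals of Eif4e and Eif4e2 overlap.

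The factors of the last steps were led by Eif5, for the protein that triggers GTP hydrolysis by eIF2, at 159 and 126 CPM. Eif5b, for the factor that joins the ribosomal subunits, was at 20.0 and 19.0 CPM. Eif6, for the factor that keeps the large subunit from joining too early, had 70 and 83 reads. Eif5a (chr11:69916714-69921958, minus strand), whose product acts mainly in elongation and carries the hypusine modification, was the member with most reads. It had 766 and 745, or 613 and 673 CPM. Its paralog Eif5a2 had 1 read in each library, so Eif5a held 99.9% of the pair. The order of Eif5a and Eif1 at the top was the same in both libraries, with means of 643 and 626 CPM (SD 42.4 and 40.3). Both genes had more CPM in replicate 2, at 673 and 654, than in replicate 1, at 613 and 597. Their SDs therefore do not measure the spread of the gap. Whether the gap exceeds counting error was not tested.

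Between the libraries, 5 of the 48 members that could be tested (10 or more reads over both) were called. A call required Fisher's exact test to give an adjusted p below 0.05 and the log2 ratio to reach 1 or -1. Eif3a and Eif4b were higher in replicate 1, and Eif2b2, Eif3k and Eif4ebp1 in replicate 2. Over all 8973 genes tested, 9.92% were called higher in replicate 1 and 10.6% in replicate 2, 20.6% in either direction, beside 10.4% of the members. The difference between these shares was not tested. The median log2 ratio of the members was -0.07, against 0.08 over all genes tested. Ratios are on the TMM scale, which shifts every log2 ratio by -0.19 from scaling by the total of gene reads. Scaled by the total, 6 members were called higher in replicate 1 and 2 in replicate 2, where 12.4% and 9.03% of all genes were. Together these were 16.7% of the members and 21.4% of all genes, and Eif3k, at -0.92, was no longer called. From full splice models alone (those covering a whole intron chain), 7 of 47 members were called higher in replicate 1, where 12.5% of all genes were, and 3 in replicate 2. In either direction these were 21.3% of the members and 22.5% of all genes. The test compares these 2 libraries and holds counting error only. In edgeR's exact test, with a common dispersion that includes the spread between the libraries (biological coefficient of variation 0.390), no member was called and none had an unadjusted p under 0.05, while 12 of the 8973 genes (0.134%) were called. This dispersion was estimated from the same 2 libraries that the test compares. Few calls therefore follow from the design, and their absence does not decide the calls by Fisher's exact test.

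The ratio between the libraries moved with transcript length. Across the 48 members Pearson's r between the log2 ratio and the log2 of the mean model length was 0.669 and Spearman's rho 0.677, and across all 8973 genes r was 0.634. These are descriptions across genes of the same pair of libraries. The mean model length was weighted by the reads of both libraries, incomplete models included. It is therefore not independent of the ratio, and neither is the trend on length used below. The 20 members between 1000 and 2000 bases had a median log2 ratio of -0.30, the 8 between 3000 and 4000 bases 0.71 and the 6 above 4000 bases 0.79. For all genes in these ranges the medians were -0.29, 0.60 and 0.75. Eif3a and Eif4b have long transcripts, with means of 4555 and 3319 bases, and Eif3k the shortest of the members, 749 bases. After the trend of all genes on length was taken out, Eif3a was at 0.30, Eif4b at 0.59, Eif2b2 at -0.92 and Eif3k at 0.15, none of them called. Eif4ebp1 remained called at -1.31. Eif1ax, a gene with a mean model length of 4843 bases and 78 and 87 reads, was called at -1.26. By this measure 2.23% of all genes were called higher in replicate 1 and 4.4% in replicate 2.

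**Figure D3:**
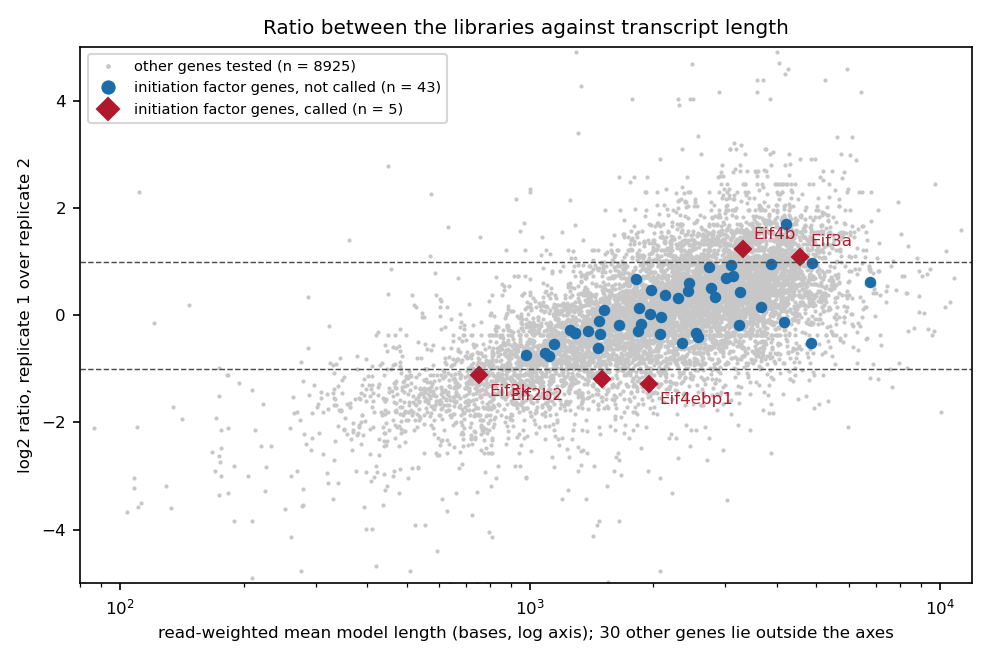
Log2 ratio of replicate 1 over replicate 2 against the read-weighted mean model length in bases (log axis) for other genes (grey; 8925 were tested and 30 lie outside the axes), 43 members that were not called (blue) and the 5 that were called (red diamonds); dashed lines mark log2 ratios of -1 and 1. The called members run from Eif3k at 749 bases to Eif3a at 4555 bases.

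Genes that act on or beside these factors were taken from a list of 47, of which 46 matched the files and 43 had enough reads. Fisher's exact test called 4 of the 43 higher in replicate 1 (Mknk2, Tsc2, Rptor and Larp4b) and 5 higher in replicate 2 (Paip2, Tsc1, Mcts1, Denr and Ddit3), against the 9.92% and 10.6% of all genes. Their median log2 ratio was 0.03. Mknk2, which encodes a kinase that phosphorylates eIF4E, was the highest with 661 and 228 reads, or 529 and 206 CPM. Paip2, for a repressor that binds poly(A)-binding protein, had 243 and 473 reads. Ppp1ca, a catalytic subunit of the phosphatase that acts on eIF2 alpha, was at 262 and 308 CPM and was not called. Of the next 5 partners by level, only Tsc1 was called. Rheb, the activator of mTORC1, was at 94.5 and 138 CPM, and Abcf1, which binds eIF2, at 134 and 78.6 CPM. Bzw1, for a mimic of eIF5, was at 119 and 74.1 CPM and Pabpc4, a poly(A)-binding protein, at 76.1 and 103 CPM.

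Of the called partners, the 2 genes of the tuberous sclerosis complex, which holds mTORC1 in check, went opposite ways. Tsc2 had 84 and 26 reads. Tsc1 had 39 and 212 reads, of which 37 and 212 lay in a model of 1 exon without splicing at the 3′ end of the gene. Reads of spliced Tsc1 transcripts were therefore 2 in replicate 1 and 0 in replicate 2. Rptor, for the mTORC1 scaffold Raptor, had 35 and 4 reads. Rptor, Tsc1 and Denr remained called after removal of the length trend and the other 6 did not, while Dnajc3 and Rps6kb2 were then called higher in replicate 2. That made 1 of the 43 partners higher in replicate 1 and 4 in replicate 2 (11.6% together). Of all genes, 2.23% and 4.4% were so called, and the difference was not tested. Denr was not called when scaled by the total, at -0.92, or without the filter on low counts, with an adjusted p of 0.0511 by Fisher's exact test. From full splice models alone Paip2 was not called, at -0.58 with an adjusted p of 0.0686 by the same exact test. Larp4b was called neither from those models nor without the filter, with adjusted p of 0.121 and 0.0819. Mcts1 and Denr, whose products form a pair that acts in reinitiation, had 25 and 64 reads and 26 and 44 reads. Ddit3, a stress-induced transcription factor downstream of eIF2 phosphorylation, had 9 and 24 reads and Larp4b, an RNA-binding protein, 22 and 7. Some of these partners overlap a gene on the opposite strand: Ddit3 overlaps Mars (163 reads), Rps6kb2 Coro1b (64 reads) and Tsc2 Pkd1 (24 reads). As for the members, whether counting used the strand is not stated. edgeR's exact test called none of the 43 partners, and 2 had an unadjusted p under 0.05.

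The reads of the members were assigned to full splice models, those with a whole annotated chain (Known) or a whole unannotated chain (NIC, from known splice sites, and NNC, with at least 1 other site), in 89.1% of cases in replicate 1 and 85.7% in replicate 2. The mean was 87.4% ± 2.41 (SD, n = 2). Over all genes the shares were 89.1% and 80.6%. Known chains alone held 85.3% and 83.3% of the members' reads, against 69.9% and 72.0% over all genes. NNC chains held 1.70% and 1.20%, against 14.1% and 5.30% over all genes. Shares over all genes pool reads, so genes with many reads weigh most. The 6 skeletal muscle markers alone held 27.6% and 18.6% of gene reads. Shares per gene, or among genes of like level, were not compared. Incomplete models and models without splicing (Genomic) made up the rest, with Genomic models at 1.25% and 4.99%.

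Full splice shares tended to be lower in members with long transcripts. Across the 46 members with at least 10 reads in each library, the mean full splice share against the length of the most read annotated transcript gave Pearson's r of -0.611 and Spearman's rho of -0.566, a description across genes. The lowest shares were 11.9% in Eif4ebp2, 16.0% in Eif4g3, 23.2% in Eif4g1, 43.9% in Eif5b and 54.1% in Eif3c. Eif1ax and Eif3j1, with annotated transcripts of 5172 and 5413 bases, nonetheless reached 92.2% and 87.8%. In Eif4g1 an incomplete single-exon model of 635 bases at the 3′ end held 15 of 165 reads in replicate 1 and 44 of 94 in replicate 2. Most of the Eif4ebp2 reads lay in 1-exon models, 3781 bases long in replicate 1 and 420 bases long in replicate 2, that end at the same base.

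**Figure D4:**
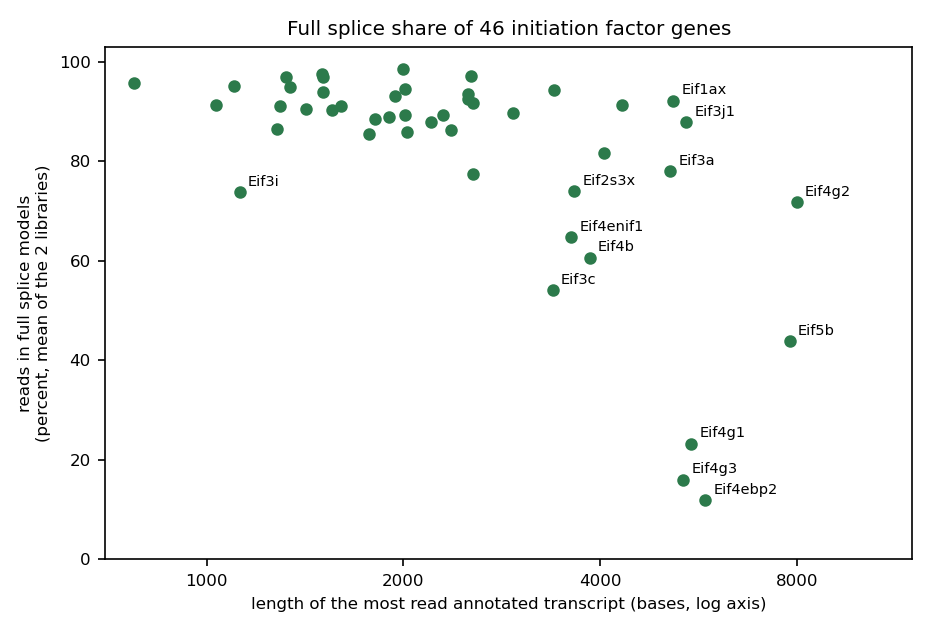
Percent of reads in full splice models (mean of the 2 libraries) against the length in bases (log axis) of the most read annotated transcript, for the 46 initiation factor genes with at least 10 reads in each library. Above 80% lie 34 of the genes, and Eif4g1, Eif4g3 and Eif4ebp2 lie under 25%.

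In the 26 members that could be tested, the main chain held at least 63.4% of the full splice reads in each library. They had at least 50 full splice reads in each library and more than 1 chain, and none changed the share of its main chain between the libraries by Fisher's exact test with Benjamini-Hochberg adjustment, where 3.58% of the 1426 genes tested did. The lowest p among them by that exact test was that of Eif4h, 0.0324 unadjusted and 0.408 adjusted. In Eif1, Eif1-201 held 98.8% and 98.1% of full splice reads, and in Eif3b, Eif3b-201 held 98.1% and 99.2%. The main chain held a smaller part in Eif4a2 (Eif4a2-201, 68.8% and 66.3%), Eif4h (Eif4h-201, 63.4% and 74.8%) and Eif2b4 (Eif2b4-201, 69.1% and 74.1%). Eif4e2 spread its reads over 6 chains with at least 5 reads, the first of which, Eif4e2-206, held 39.3% and 45.8%. In Eif5a the chain Eif5a-210 held 89.4% and 91.9% and 3 other annotated chains had 10 or more reads in the sum of both libraries.

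An informative read spans an exon with both of its junctions or skips it. With a minimum of 20 such reads per library, 368 internal exons of 40 members were measured, and 97.0% of them were included in over 90% of the reads in both, against 88.2% over all genes. Only 2 exons (0.543%) lay between 10 and 90% in both libraries, where 2.24% of the 24297 exons of all genes did. None differed between the libraries by Fisher's exact test with Benjamini-Hochberg adjustment, against 0.037% of all exons. Exons of Eif4h and Eif2a had an unadjusted p under 0.05 by this exact test. With a minimum of 10 informative reads, a 79-base exon of Eif4e2 also lay between 10 and 90%, at 56.5% and 75.0% in replicates 1 and 2. It had 23 and 12 informative reads. The 2 exons that were alternative at the minimum of 20 reads are in Eif4g2 and Eif4h. The exon is in capitals and 15 bases of each neighbouring exon are in lower case. For a rarer exon of Eif4a2 only the start is shown, up to the stop codon in it. The letters are those of GENCODE M21 transcripts on mm10, and both alternative exons are coding throughout.
Eif4g2-213, exon 14 of 22: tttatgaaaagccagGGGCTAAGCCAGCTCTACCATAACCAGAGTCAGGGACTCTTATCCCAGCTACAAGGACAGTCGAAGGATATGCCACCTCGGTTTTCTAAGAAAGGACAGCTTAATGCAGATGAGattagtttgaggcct
Eif4h-205, exon 5 of 7: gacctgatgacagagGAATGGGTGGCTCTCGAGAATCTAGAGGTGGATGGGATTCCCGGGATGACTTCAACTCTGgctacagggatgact
Eif4a2-224, start of exon 11 of 12: aaactatattcacagGAGTCGATAG

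The exon of Eif4g2 (chr7:111076280-111076393, minus strand) has 114 bases, or 38 codons. It was included in 400 of 518 informative reads in replicate 1 and 198 of 246 in replicate 2, which is 77.2% and 80.5% (mean 78.9% ± 2.31, SD, n = 2). Most reads without it, 109 of 118 and all 48, lay in models classed as incomplete. The main such model, with 98 and 44 reads, has 21 exons and 19 of the 21 introns of Eif4g2-213. Its other intron joins the neighbours of exon 14. It shares 20 of the 21 introns of the annotated Eif4g2-206, which has a further intron at its 5′ end. The full splice share of Eif4g2, 71.9%, leaves these reads out, and with full splice models alone the exon was not alternative, while 2.16% of the exons of all genes were.

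The exon of Eif4h (chr5:134624441-134624500, minus strand) has 60 bases, or 20 codons, and separates Eif4h-205 from Eif4h-201. It was present in 82 of 234 reads in replicate 1 and in 30 of 125 in replicate 2, or 35.0% and 24.0% (mean 29.5% ± 7.81, SD, n = 2). The Wilson 95% intervals, 29.2 to 41.4% and 17.4 to 32.2%, overlap. Fisher's exact test gave p = 0.0322 before and 1.0 after adjustment over all exons. In both libraries the shorter form had most reads.

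In Eif4a2 a 107-base exon (chr16:23112351-23112457, plus strand) was in 2.14% and 2.91% of informative reads. A form of it longer by 4 bases at its 3′ end was in 2.84% and 2.34%. No coding transcript of GENCODE M21 holds the longer form as an internal exon, and noncoding transcripts were not searched. GENCODE M21 has the shorter form in Eif4a2-224, a protein-coding transcript with 3 and 4 reads, whose coding sequence ends 7 bases into the exon, before the TAG shown above. A 94-base exon of Eif5a, which lies upstream of the start codon of Eif5a-210, was in 6.06% and 3.76% of informative reads. Whether it is coding in other transcripts was not examined.

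A pair of members also used acceptor sites 3 bases apart, looked for after the chains had been seen. Each line below gives the last 15 bases of the exon before the intron, the 3 bases added by the upstream acceptor in capitals, and the next 15 bases. Both added triplets are in coding sequence of GENCODE M21 transcripts (mm10, plus strand), at chr16:23108585-23108587 in Eif4a2 and at chr16:20681734-20681736 in Eif4g1.
Eif4a2-203: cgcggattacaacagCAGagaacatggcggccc
Eif4g1-205: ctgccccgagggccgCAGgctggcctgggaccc
In Eif4a2 the upstream site was used by 68 of 283 reads in replicate 1 and 48 of 177 in replicate 2, a mean of 25.6% ± 2.19 (SD, n = 2). This choice separates Eif4a2-203 from Eif4a2-201. In Eif4g1 it was used by 43 of 110 and 9 of 28 reads, a mean of 35.6% ± 4.91 (SD, n = 2). In each gene the Wilson intervals of the libraries overlap, and the downstream site had more reads in both libraries.

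**Figure D5:**
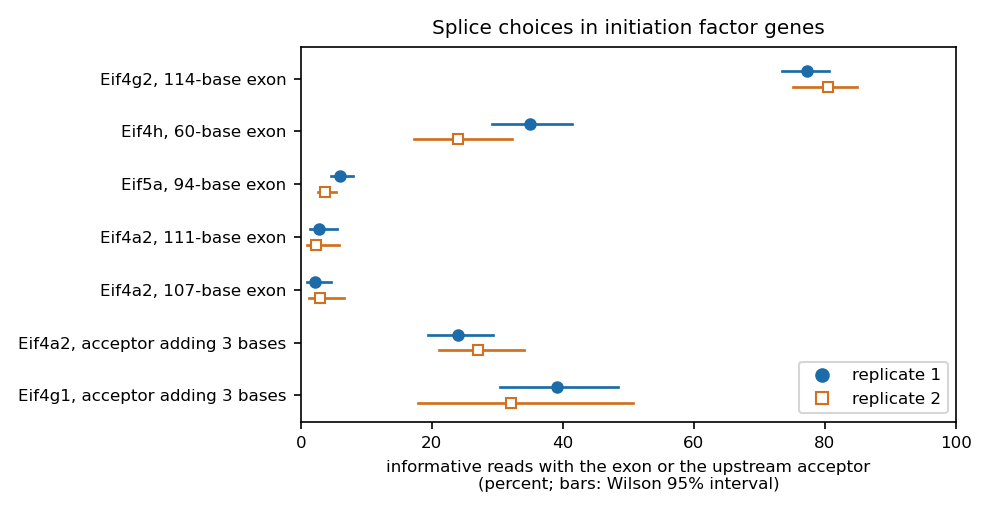
Percent of informative reads that include the named exon, or that use the upstream of the 2 acceptors, in replicate 1 (filled circles) and replicate 2 (open squares), with Wilson 95% intervals as bars. The intervals of the libraries overlap for each of the 7 choices.

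Unannotated chains were few. With at least 2 reads in a library, 46 NIC or NNC chains of the members were found, and 24 of them (52.2%) had a read in both libraries, as did 53.6% of those of all genes. The chain with most reads was a 33-exon NIC chain of Eif4g1 (chr16:20672723-20692881) with 18 and 5 reads. It had more than the annotated chain Eif4g1-205, with 4 and 1. A second Eif4g1 chain of 33 exons, with the same ends and 5480 instead of 5477 bases, had 8 and 1 reads. Eif4enif1 had a 19-exon chain with 5 and 4 reads, Eif3m a 10-exon chain with 4 and 3, and Eif4e2 an 8-exon chain with 5 and 2. Eif4a2, Eif4enif1 and Eif4e2 each had a chain with 6 reads in the sum. These counts are too small to compare the libraries.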

How the data were processed

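Total RNA from 2 gastrocnemius libraries, labelled biological replicates 1 and 2 of 1 group, was read as long reads. For each library the authors deposited raw read counts per transcript model and the exons of each model. Per the file headers the annotation attributes name TALON, and notes beside the files name mm10 (GRCm38) and GENCODE M21. Neither TALON's version nor an aligner or platform is given in the sources.

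For each annotated gene, reads were summed over its models, and CPM was computed from these counts. Known models carry their annotated length. Where both libraries together had 10 or more reads of a gene, Fisher's exact test, two-sided, compared them with all other gene reads as deposited, with Benjamini-Hochberg adjustment over 8973 genes (SciPy 1.17.1). Called genes had an adjusted p below 0.05 and a log2 ratio beyond 1 or -1 on the TMM scale (edgeR 4.0.16, prior count 0.5). A contrast of 1 library with the other leaves no residual degree of freedom, so edgeR's quasi-likelihood test could not be fitted to it, and the common dispersion was taken from the 2 libraries as 1 group. Main chains needed 50 full splice reads and exons 20 informative reads in each library. Intervals are Wilson 95% intervals. They and the floors of 3 reads cover counting error only, as no molecular identifier is named. The p-values cover the counting of these reads and not a spread between animals. Alternatives were DESeq2 1.42.0 size factors, scaling by the total, no filter, full splice models alone, removal of a running median on length over 401 genes, and edgeR's exact test. The scripts were tested on simulated data. Sequences and gene bounds are from GENCODE M21.

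The members, the partner list and the tests were chosen with earlier results of these data known. The genes named are the 20 members with the highest mean CPM, called members, paralogs, subunits of eIF2, eIF2B and eIF3, and members without a read. Of the partners they are the 8 highest and those called. Others were named after their values were seen. Marker lists for endothelial, erythroid, macrophage, satellite, adipocyte and smooth muscle cells held between 0.000723% and 0.182% of gene reads.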

Additional observations from a re-analysis of the deposited data

How the results depend on the processing

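The number of members higher in replicate 1, 2 by the main test, was 6 with scaling by the total, 7 over full splice models, 0 with the length trend removed and 0 by edgeR's exact test. That of members higher in replicate 2, 3 by the main test, was 2 with scaling by the total, where 9.03% of all genes were so called. With the length trend removed it was also 2, Eif1ax and Eif4ebp1, where 4.4% of all genes were so called. By edgeR's exact test it was 0. The edgeR dispersion came from the same libraries that were compared, so its counts of 0 do not decide the other calls. The number of partners higher in replicate 1, 4 by the main test, was 5 with scaling by the total and 3 with no filter. It was 1 with the length trend removed and 0 by edgeR's exact test. That of partners higher in replicate 2, 5 by the main test, was 4 with scaling by the total, no filter or full splice models. It was also 4 with the length trend removed, and 0 by edgeR's exact test. With the length trend removed, 2.23% of all genes were called higher in replicate 1. The members added by scaling by the total were Eif2ak1, Eif3c, Eif3j1 and Eif4enif1, and those added by full splice models Eif2s3x, Eif3c, Eif4enif1, Eif4g1 and Eif4g3. Eif3k turned from -1.12 to 0.15 with the length trend removed. Unannotated member chains found in both libraries, 24 of 46 by the main rule, were 6 of 7 at a minimum of 5 reads (85.7%, all genes 86.7%) and 5 of 18 with NNC chains alone (27.8%, all genes 41.0%). Without one or the other replicate, the share of gene reads was 0.481 to 0.519%, the full splice share 85.7 to 89.1% and the members with at least 10 reads 46 to 48. DESeq2 size factors gave the same calls for all 48 members. That outcome was nearly fixed, because Fisher's exact test used unscaled counts under each scaling. The log2 shift from scaling by the total was -0.19457 with DESeq2 and -0.19499 with TMM. Of 28 paralog shares, 8 moved by over 1 SD with full splice models, an alternative added after the data were seen. No paired analysis was possible because the labels give a single group.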

Other observations

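Among Eif-named genes that are not protein coding, 10 processed pseudogenes and 1 lincRNA, only Eif4a-ps4 had reads. It is a single-exon model of 1218 bases at chr1:60703932-60705149 (plus strand) with 71 and 44 reads, where Eif4a1 had 85 and 75. Its log2 ratio was 0.31, with an adjusted p of 0.145 by Fisher's exact test. Its sequence likeness to the Eif4a genes was not examined.

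Some models without splicing were very short. A 7-base model at the 3′ end of Eif5a carried 18 and 38 reads, and a 1-base model at the 3′ end of Eif4h carried 26 reads in replicate 2. In replicate 2 a 79-base model of Eif3m held 27 of 131 reads, and 1-exon models held 31 of the 213 reads of Eif4a2 and 13 of the 37 of Eif2s3x.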
